A study of Rattus norvegicus with 8 samples.

Results

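The Clca genes encode a family of secreted or membrane-anchored proteins that regulate chloride conductance. 3 of them, Clca1, Clca2 and Clca4, were followed here in the small intestine of rats with cystic fibrosis (CF). Each was taken by its exact gene symbol, which 1 locus carried in every case, so the members are 3 of the 52753 loci in the deposited table. The measurement was stranded mRNA sequencing, and 8 libraries were analysed. Of these, 4 were labelled CF and 4 wild type (WT). All were Sprague Dawley rats at postnatal day 21. RNA came from the whole length of the small intestine after the lumen had been flushed with saline and dithiothreitol, so epithelium, muscle and other layers of the wall were homogenised together. The labels give no CF allele, sex, litter or batch, and whether the libraries of a group stem from separate animals is not stated. The p-values therefore measure the spread between these libraries, which may be technical. Cftr, the chloride and bicarbonate channel gene whose loss causes CF, had 97.3 ± 6.40 CPM in CF, against 94.8 ± 14.7 CPM in WT (SD, n = 4 each), and with no allele given this level does not check the labels. CPM values are fragments scaled to the effective size of each library.

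Clca proteins were first described as calcium-activated chloride channels. They are now regarded as proteins that carry a protease domain and modulate channels made by other genes, such as the anoctamin channel encoded by Ano1, an effect shown with human CLCA1 in cultured cells. Clca1 is secreted by goblet cells and is a component of intestinal mucus, where in the mouse it can cleave the mucin Muc2. Clca4 is known as a gene of absorptive enterocytes. Clca2, by contrast, is known in humans mainly from stratified epithelium such as skin. Variants in the human CLCA gene region have been studied as modifiers of intestinal disease in CF.

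The members lie side by side on chromosome 2. In the deposited coordinates (Rnor_6.0) the order was Clca5, Clca4l, Clca4, Clca1 and Clca2. Clca4 spans 250842845 to 250864021, Clca1 spans 250897968 to 250923744, and Clca2 spans 250951971 to 250981623. The gap between Clca4 and Clca1 was 33.9 kb and that between Clca1 and Clca2 was 28.2 kb. Symbols in this family have moved between genes: the RefSeq table lists Clca6 as an older name of Clca4, Clca3 as one of Clca1 and Clca5 as one of Clca2. It also lists both Clca2 and Clca4 as older names of the gene now called Clca5. The symbols here are those of the deposited table, and the order of the 5 genes along the chromosome was the same in RefSeq.

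Sequence upstream of the transcription start was compared because these neighbouring copies of a gene were found at very different levels. All 5 genes matched an entry of RefSeq's promoter table, and all lie on the minus strand there. The 250 bases before the start are shown for the pair of strongly expressed members, Clca4 (GRCr8, chr2:236565097-236565346) and Clca1 (GRCr8, chr2:236624715-236624964). Capitals mark matches on either strand to the letters TTTAT, the core bound by the intestinal CDX factors, and to TATATA, a run resembling a TATA box.
Clca4: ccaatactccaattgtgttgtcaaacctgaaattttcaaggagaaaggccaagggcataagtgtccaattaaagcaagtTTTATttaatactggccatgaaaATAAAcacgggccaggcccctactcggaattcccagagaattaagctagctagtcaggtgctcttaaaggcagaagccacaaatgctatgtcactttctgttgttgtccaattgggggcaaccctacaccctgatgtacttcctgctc
Clca1: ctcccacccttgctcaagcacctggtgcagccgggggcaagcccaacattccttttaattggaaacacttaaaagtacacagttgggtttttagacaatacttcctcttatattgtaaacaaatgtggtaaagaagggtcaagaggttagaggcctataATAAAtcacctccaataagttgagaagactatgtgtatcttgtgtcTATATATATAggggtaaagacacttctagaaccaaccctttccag
The 3 matches to TATATA upstream of Clca1 overlap each other and lie from 45 to 36 bases before its start. No such match was found upstream of Clca4, and 5.45% of 33469 upstream windows of the same length held one. TTTAT was found at 2 places upstream of Clca4 and at 1 upstream of Clca1, and 39.3% of all windows held it. The less expressed genes had 3 matches upstream of Clca5, 1 upstream of Clca4l and 0 upstream of Clca2. Neither TATAAA (12.9% of windows) nor the palindromic STAT6 consensus site (6.25% of windows) occurred in the windows of the 5 genes on either strand. The Clca4 and Clca1 windows were identical at 136 of 205 aligned bases (66.3%), with a longest shared run of 8 bases. Gaps were left out of this share, and the alignment was 295 positions long. The closest pair was Clca5 and Clca4l at 76.0%, with a shared run of 26 bases, while the other pairs ranged from 55.9% to 66.3%. Unrelated windows were not aligned, so whether these identities and shared runs exceed those of unrelated sequence was not tested. The transcripts themselves were not compared.

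The libraries held 18621671 to 20890026 fragments in CF and 15255362 to 20812414 fragments in WT. CF library 0 stood apart in its absorptive cell genes: the enterocyte score, the mean of 19 tested markers in log2 units around their average over all libraries, was -0.94 there, against 0.11 to 0.51 in CF libraries 1, 2 and 3 and -0.21 to 0.44 in WT. WT library 0 was the lowest in goblet cell markers, with a score of -0.67, against 0.12 to 0.53 in CF and -0.38 to -0.13 in the other WT libraries. Library numbers run from 0 to 3 and only name libraries.

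**Figure D1:**
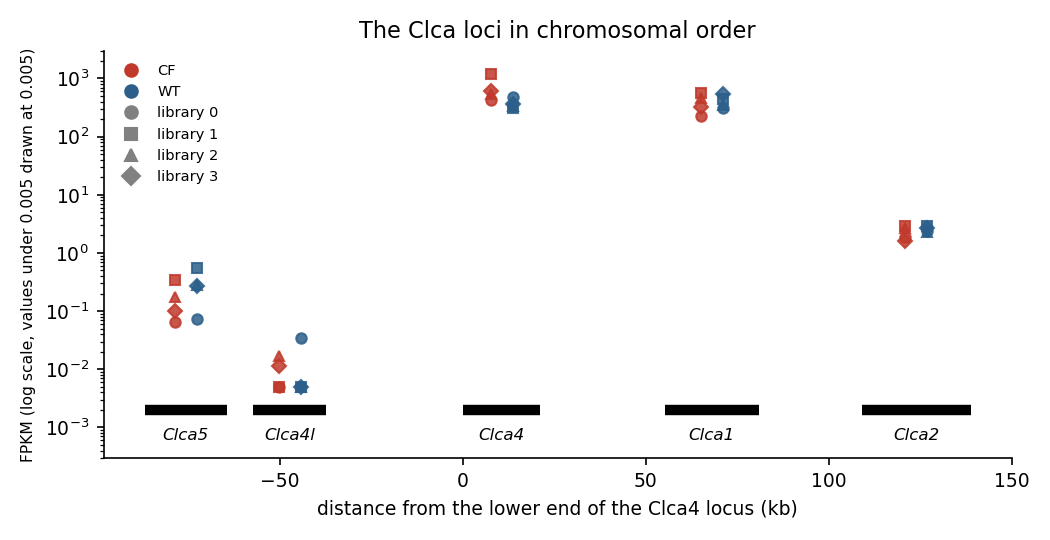
FPKM of the 5 Clca loci on a log axis, placed by distance in kb from the lower end of the Clca4 locus, with CF libraries in red and WT libraries in blue. Black bars are the loci, marker shapes are libraries 0 to 3, and values under 0.005 are drawn at 0.005. Clca4 and Clca1 sit at 226 to 1186 FPKM in every library, Clca2 at 1.6 to 2.93 FPKM and the other loci below 1 FPKM.

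Clca4 and Clca1 were among the most abundant transcripts of the tissue, Clca2 was low, and the other family loci were nearly silent. On the FPKM scale, which divides by transcript length and so allows comparison between genes, Clca4 averaged 692 ± 338 in CF and 374 ± 80.6 in WT (SD, n = 4 each). Clca1 averaged 397 ± 153 FPKM in CF and 410 ± 104 FPKM in WT. Among all 52753 loci ordered by FPKM, Clca4 held ranks from 42 to 192 in CF libraries and from 130 to 215 in WT libraries. Clca1 held ranks from 141 to 337 in CF libraries and from 125 to 217 in WT libraries. Within libraries, Clca4 had the higher FPKM of the pair in 4 of 4 CF libraries and in 1 of 4 WT libraries, so their order was mixed in WT. Clca2 followed at 2.26 ± 0.616 FPKM in CF and 2.57 ± 0.288 FPKM in WT, far below both in every library.

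The enterocyte member was the one with the larger difference. Clca4 had 1864, 4111, 2166 and 2860 CPM in CF libraries 0, 1, 2 and 3, against 2012, 1169, 1422 and 1554 CPM in WT libraries 0, 1, 2 and 3. CF libraries 1, 2 and 3 lay above every WT library, while CF library 0 lay below WT library 0, so the groups overlapped. The log2 fold change of CF over WT was 0.84 (SE 0.26, 95% interval 0.26 to 1.42), which is 1.79-fold. Its p was 0.00888 before adjustment, rank 784 among 16941 loci tested, and the adjusted p was 0.191 (edgeR, quasi-likelihood F-test, Benjamini-Hochberg). With DESeq2 the log2 fold change was 0.85 and the adjusted p = 0.0255, which passes the threshold of 0.05. DESeq2 also differs in its scaling and in the loci it adjusts over. Within edgeR, another scaling (RLE) gave an adjusted p of 0.193, and leaving out the low-count filter gave 0.25. The cause of the difference between the tools was not tested. Without CF library 0 edgeR gave a log2 fold change of 0.99 (adjusted p = 0.0926), and without CF library 1, the highest, it gave 0.58 (adjusted p = 0.276). Without libraries 0 of both groups it gave 1.14 (adjusted p = 0.0779). In bulk tissue, a different number of cells of a type and a different amount of RNA per cell cannot be told apart.

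The goblet cell member did not differ detectably. Clca1 had 1084, 2355, 2267 and 1778 CPM in CF libraries 0, 1, 2 and 3, against 1404, 2030, 1775 and 2537 CPM in WT libraries 0, 1, 2 and 3. The lowest value was in CF library 0 and the highest in WT library 3, with the other libraries of both groups mixed between them. This gave a log2 fold change of -0.05 (SE 0.26, 95% interval -0.62 to 0.53, edgeR's adjusted p = 0.947). That interval reaches from 0.649-fold to 1.44-fold, so a moderate difference in either direction was not detectable with 4 libraries a group. Without CF library 0 the log2 fold change was 0.14, and without WT library 3 it was 0.11, so its sign rested on single libraries. Without libraries 0 of both groups it was 0.01.

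Clca2 had 11.7, 16.9, 17.9 and 12.5 CPM in CF libraries 0, 1, 2 and 3, against 14.5, 18.9, 15.7 and 18.5 CPM in WT libraries 0, 1, 2 and 3. CF libraries 0 and 3 lay below all WT libraries, and CF libraries 1 and 2 lay within the WT range. These levels rested on 243 to 337 fragments per library in CF and 239 to 376 in WT. On the log2 scale the difference of CF from WT was -0.20 (SE 0.16, 95% interval -0.56 to 0.17, edgeR's adjusted p = 0.606). Without CF library 0 it was -0.10, and without libraries 0 of both groups it was -0.17.

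**Figure D2:**
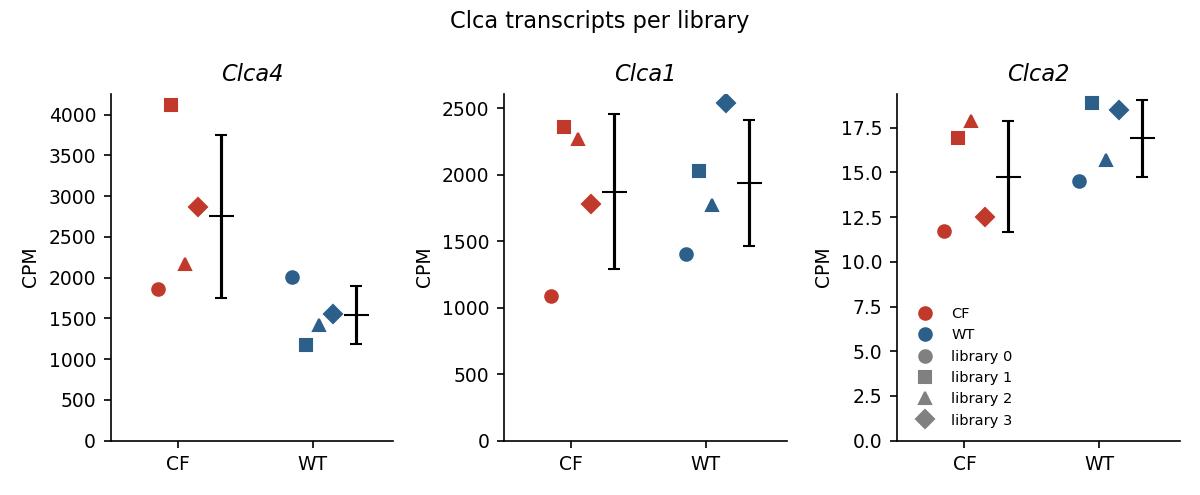
CPM of Clca4, Clca1 and Clca2 in each library, CF left and WT right of each panel. Marker shapes are libraries 0 to 3, and the bar beside each group is its mean ± SD (n = 4). For Clca4 the mean was 2750 CPM in CF against 1539 CPM in WT with overlapping groups, and for Clca1 it was 1871 CPM in CF against 1937 CPM in WT.

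All 3 members passed the filter on low counts, and edgeR called 0 of the 3 at an adjusted p under 0.05, where it called 28 of all 16941 loci (0.165%), 0.136% as higher and 0.0295% as lower in CF. At an unadjusted p under 0.05 it passed 1 of the 3, Clca4, where 15.1% of all loci passed in either direction and 7.94% passed as higher in CF. DESeq2 called the same 1 of 3, against 3.02% of the 18626 loci to which it gave an adjusted p, 2.16% as higher in CF. limma-voom called 0 of 3, as did limma on log2(FPKM + 1) and on log2(FPKM + 0.1). The spread of the members within a group was wide: the coefficient of variation of CPM was 36.3% in CF and 22.9% in WT for Clca4, 31.2% in CF and 24.6% in WT for Clca1, and 21.0% in CF and 12.5% in WT for Clca2.

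The authors' deposited table gives Clca4 a group FPKM of 692 in CF, with interval bounds of 0 and 2949, and of 374 in WT, with bounds of 210 and 537. For Clca1 the authors' deposited table has 397 FPKM in CF (bounds 212 and 582) and 410 FPKM in WT (bounds 218 and 603). The CF interval of Clca4 in the authors' deposited table is therefore far wider than its 4 library values, which ran from 427 to 1186 FPKM. The sources used here do not say how those bounds were made.

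The other 2 loci of the family were close to the limit of counting. Clca5 had 5, 18, 12 and 6 fragments in CF libraries 0, 1, 2 and 3, against 4, 27, 21 and 15 fragments in WT libraries 0, 1, 2 and 3. It was lowest in library 0 of each group, and the groups overlapped. Its log2 fold change was -0.74 (SE 0.55, edgeR's adjusted p = 0.555). Clca4l had 2 fragments over the 4 CF libraries and 2 over the 4 WT libraries, and was not tested. With closely related copies, fragments could have been shared between Clca5 and Clca4l, and their counts are uncertain.

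The contrast between Clca4 and Clca1 was examined within each library as the ratio of their fragments, which needs no scaling between libraries. The ratio was 1.72, 1.75, 0.955 and 1.61 in CF libraries 0, 1, 2 and 3, against 1.43, 0.576, 0.801 and 0.613 in WT libraries 0, 1, 2 and 3. CF libraries 0, 1 and 3 lay above every WT library, CF library 2 lay between WT libraries 0 and 2, and WT library 0 lay with the CF libraries. The log2 ratio averaged 0.55 ± 0.42 in CF and -0.33 ± 0.60 in WT (SD, n = 4 each), a difference of 0.88 (SE 0.36), or 1.84-fold. A two-sided exact permutation test over the 70 assignments gave p = 0.0571, where the smallest p this design allows is 0.0286. The difference was 0.80 without CF library 0, 1.16 without WT library 0 and 1.08 without both. Per length, the FPKM ratios were 1.17 to 2.07 in CF and 0.671 to 1.6 in WT. The higher mean ratio in CF did not pass the test.

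**Figure D3:**
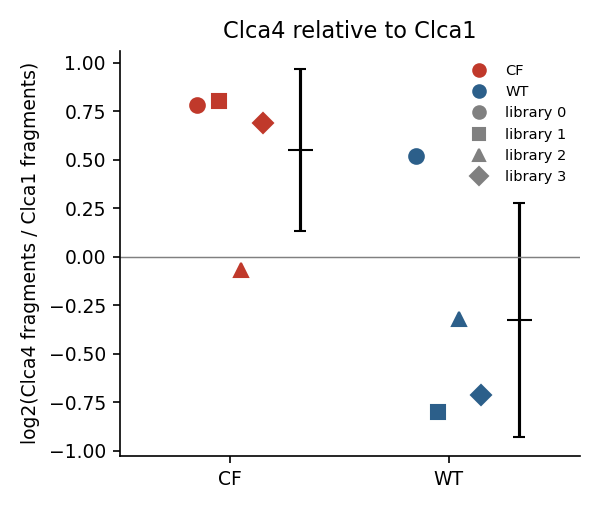
The log2 ratio of Clca4 to Clca1 fragments in each library, CF left and WT right, with marker shapes for libraries 0 to 3 and bars for the mean ± SD (n = 4). CF libraries 0, 1 and 3 lie between 0.69 and 0.80, CF library 2 is at -0.07, WT library 0 is at 0.52 and the other WT libraries lie between -0.80 and -0.32.

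Clca1 lay below each of the 18 tested goblet cell markers of the list in its difference between CF and WT. Of 20 listed goblet cell markers 18 were tested, and all 18 had higher means in CF, with a median log2 fold change of 0.43. Over all loci the median was 0, and 49.2% had a higher mean in CF. Each of the 18 had a higher log2 fold change than Clca1, from 0.22 upward. edgeR called 2 of the 18, the transcription factor gene Creb3l1 (log2 fold change 1.21, adjusted p = 0.00147) and the secreted lectin gene Reg4 (1.66, adjusted p = 0.0132), where 0.136% of all loci were called higher. DESeq2 called 8 of the 18 higher, where it called 2.16% of all loci higher, and limma-voom called 2 of the 18, where it called 17 loci in all. The summed level of the tested markers was 10268 to 14555 CPM in CF, against 5841 to 9777 CPM in WT. Muc2, the main gel-forming mucin and a substrate of Clca1 in the mouse, had 2920 to 4272 CPM in CF against 2023 to 2765 CPM in WT, with no overlap between the groups (8.78% of all loci had none), and a log2 fold change of 0.65 (SE 0.18, edgeR's adjusted p = 0.149). The deposited Muc2 locus spans 214428525 to 214693217 on chromosome 1, longer than the RefSeq gene, so fragments of neighbouring genes may be counted in it. Fcgbp, another abundant mucus protein gene, was at 3016 ± 874 CPM in CF against 2257 ± 605 CPM in WT (log2 fold change 0.42, adjusted p = 0.470). The 95% interval of Clca1 includes the list's median, and the markers were chosen with earlier results of these libraries known.

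Clca1 was then set against the goblet cell score of the same library. In log2 units around its mean, Clca1 less the goblet cell score was -0.89, 0.02, -0.02 and -0.58 in CF libraries 0, 1, 2 and 3, against 0.28, 0.27, 0.32 and 0.61 in WT libraries 0, 1, 2 and 3. Every CF library was below every WT library on this measure, and the means differed by -0.74. The goblet cell score alone already parted the groups, at 0.12 to 0.53 in CF and -0.67 to -0.13 in WT. A gene without a difference would tend to part them too once the score is subtracted, so this is no separate result about Clca1. The measure is given without a test, because the score comes from a list chosen with results known. CF libraries 0 and 3 were the lowest, and CF library 0 is also the library with the low enterocyte score. Over the 8 libraries, Clca1 had a Pearson r of 0.86 with the enterocyte score and of 0.25 with the goblet cell score. Group means were not taken out here. The goblet cell score differed between the groups and Clca1 did not detectably, which lowers their r. In WT libraries 0, 1, 2 and 3, Clca1 around its mean was -0.39, 0.14, -0.05 and 0.46. The goblet cell scores there were -0.67, -0.13, -0.38 and -0.14. In CF libraries 0, 1, 2 and 3, Clca1 was -0.76, 0.35, 0.3 and -0.05, with scores of 0.12, 0.34, 0.33 and 0.53. Without CF libraries 0 and 1, whose enterocyte scores were farthest from the median, the correlation with the enterocyte score was 0.55 over 6 libraries, and without WT library 0 and CF library 3 that with the goblet cell score was 0.08. Clca1 less the enterocyte score was -0.21 to 0.19 in CF and -0.42 to 0.22 in WT, so the groups overlapped.

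The difference of Clca4 between CF and WT lay above those of the 19 tested enterocyte markers of the list. Of 20 listed enterocyte markers 19 were tested: 11 had higher means in CF and 8 lower, and the median log2 fold change was 0.06. The summed level was 14366 to 37728 CPM in CF, against 21296 to 36890 CPM in WT. edgeR called 0 of the 19, with 0 at an unadjusted p under 0.05, and DESeq2 and limma-voom called 0. The most abundant markers were the apolipoprotein genes Apoa1, at 4089 ± 1755 CPM in CF against 3847 ± 923 CPM in WT, and Apoa4, at 2998 ± 1638 CPM in CF against 3651 ± 1556 CPM in WT. The log2 fold change of Clca4 was above that of each of the 19, which ran from -0.50 for the lactase gene Lct to 0.65 for the peptide transporter gene Slc15a1. The 95% interval of Clca4, 0.26 to 1.42, lies above the list's median but includes its highest member.

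Within libraries, Clca4 less the enterocyte score was 0.84, 0.54, 0.01 and 0.37 in CF libraries 0, 1, 2 and 3, against -0.01, -0.68, -0.27 and -0.79 in WT libraries 0, 1, 2 and 3. Every CF library lay above every WT library, although CF library 2 and WT library 0 nearly met, and the means differed by 0.88. In CPM alone the groups overlapped. The difference is given without a test, because this list too was chosen with results known. How many of all loci would part in this way was not computed. CF library 0, the lowest CF library in Clca4 itself, was the highest on this measure, and its enterocyte score was the lowest of all libraries. Clca4 had a Pearson r of 0.40 with the enterocyte score and of 0.60 with the goblet cell score over the 8 libraries. Without the 2 libraries whose score was farthest from the median, these were 0.34 and 0.80 over 6 libraries. Group means were not taken out. Clca4 and the goblet cell score both had higher means in CF, which raises their r. In WT libraries 0, 1, 2 and 3, Clca4 around its mean was 0.02, -0.77, -0.49 and -0.36. The goblet cell scores there were -0.67, -0.13, -0.38 and -0.14. In CF libraries 0, 1, 2 and 3, Clca4 was -0.1, 1.05, 0.12 and 0.52, with scores of 0.12, 0.34, 0.33 and 0.53. Clca4 less the goblet cell score was -0.22 to 0.71 in CF and -0.64 to 0.68 in WT, which overlapped.

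**Figure D4:**
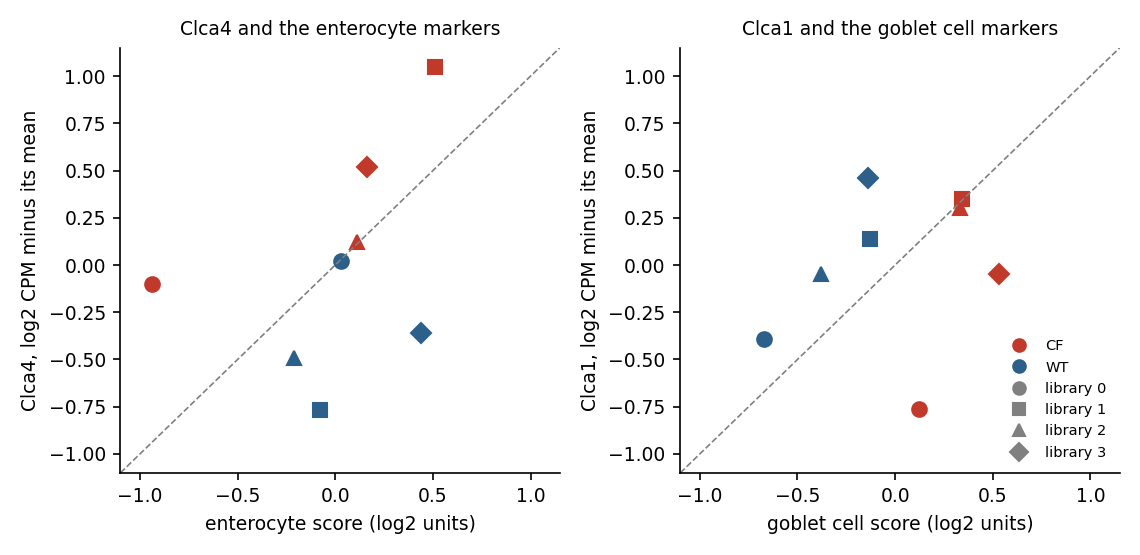
Clca4 against the enterocyte score (left) and Clca1 against the goblet cell score (right), in log2 units around the mean over the 8 libraries. CF is red, WT is blue, shapes are libraries 0 to 3, and the dashed line marks equal values. On the left the CF libraries lie on or above the line and the WT libraries on or below it; on the right CF libraries 0 and 3 lie well below the line and the WT libraries above it.

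**Figure D5:**
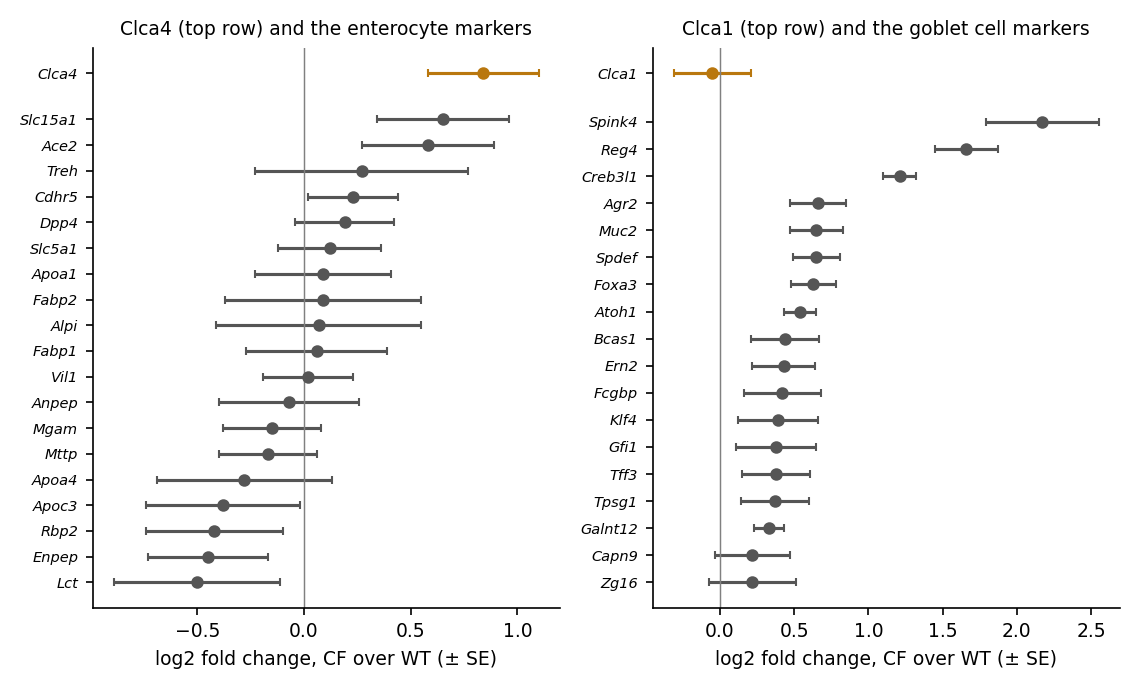
Log2 fold changes of CF over WT with their standard errors for Clca4 above 19 enterocyte markers (left) and for Clca1 above 18 goblet cell markers (right). Clca4, at 0.84, is to the right of every enterocyte marker, and Clca1, at -0.05, is to the left of every goblet cell marker.

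Clca1 and Clca2 varied alike between libraries, and Clca4 varied differently from both. Over the 8 libraries the log2 CPM of Clca1 and Clca2 had a Pearson r of 0.83, that of Clca1 and Clca4 one of 0.12, and that of Clca4 and Clca2 one of -0.27. These describe shared variation between libraries of the same tissue and carry no test. The 5 named genes most like Clca1, among 12087 with a mean of at least 1 CPM, were Cyb5d2 (r = 0.982), Adck1 (0.981), Samd8 (0.962), Osbpl6 (0.959) and the mitochondrial arginase gene Arg2 (0.958). Arg2 had 23.7, 122, 82.4 and 78.2 CPM in CF libraries 0, 1, 2 and 3, against 48.5, 72.7, 67.8 and 108 CPM in WT libraries 0, 1, 2 and 3. As with Clca1, its lowest value was in CF library 0. The 5 most like Clca4 were Gch1 (r = 0.983), Plekha6 (0.973), Bag6 (0.972), Tpgs1 (0.970) and Cdc42bpb (0.965). Gch1, which encodes the enzyme that starts tetrahydrobiopterin synthesis, had 26.6, 49.0, 26.3 and 37.8 CPM in CF libraries 0, 1, 2 and 3, against 22.5, 14.8, 17.0 and 18.4 CPM in WT libraries 0, 1, 2 and 3. Its groups did not overlap (8.78% of all loci had no overlap), and its log2 fold change was 0.94 (SE 0.21, edgeR's adjusted p = 0.101). Gch1 was picked by its likeness to Clca4, which had a higher mean in CF, so a difference in that direction follows in part from the choice. After the group means were taken out, the correlation with Clca4 was 0.98 for Gch1 and 0.93 to 0.95 for the other 4. These genes were picked as the highest over the same libraries, so high values are no separate check.

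None of the genes tested around the cluster was called. Within 500 kb on either side there were 23 loci besides the Clca genes, of which 7 were tested. edgeR called 0 of the 7 and passed 1 at an unadjusted p under 0.05, where 15.1% of all loci passed. That one was the collagen gene Col24a1, at 4.21 ± 0.579 CPM in CF against 6.85 ± 0.987 CPM in WT (log2 fold change -0.70, adjusted p = 0.122). On the side of Clca5, the nearest gene was Sh3glb1, which encodes a membrane-curving endophilin. Its more abundant locus had 91.8 to 112 CPM in CF, against 88.7 to 98.5 CPM in WT (log2 fold change 0.13, adjusted p = 0.566). On the side of Clca2, Odf2l was at 9.45 ± 0.847 CPM in CF against 8.86 ± 0.692 CPM in WT (log2 fold change 0.09, adjusted p = 0.775). Log2 fold changes of the selenoprotein gene Sep15, the heparan sulfate sulfotransferase gene Hs2st1 and Znhit6 were 0.19, -0.05 and 0.00.

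No channel or transporter that Clca proteins could act beside was called. Of 21 listed chloride channel and transporter genes 15 were tested, 9 with higher and 6 with lower means in CF, around a median of 0.04 on the log2 scale. edgeR, DESeq2 and limma-voom each called 0, and 1 passed an unadjusted p under 0.05, where 15.1% of all loci did, Ano7 (log2 fold change 0.52, adjusted p = 0.190). Ano1 had 20.6 to 22.8 CPM in CF against 19.5 to 25.1 CPM in WT. On the log2 scale the difference was -0.01 (SE 0.12, adjusted p = 0.977). The most abundant were Best1, a bestrophin chloride channel gene, at 592 ± 258 CPM in CF against 603 ± 156 CPM in WT (log2 fold change -0.03), and Ano6, a lipid scramblase and channel gene, at 331 ± 123 CPM in CF against 307 ± 81.4 CPM in WT (0.11). The deposited Best1 locus spans 225906509 to 226154149 on chromosome 1 and held fractional fragments. Fragments of other genes may therefore be counted in it, and its level is uncertain. Cftr had a log2 fold change of 0.04 (SE 0.12).

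Genes linked to type 2 immune signals, which raise human CLCA1 in airway epithelium, showed no common direction. Of 22 listed 13 were tested, 6 with higher and 7 with lower means in CF. edgeR and limma-voom called 0 of them. At an unadjusted p under 0.05, 3 were higher and 3 lower, where 15.1% of all loci passed in either direction. DESeq2 called 1 in each direction, where it called 3.02% of all loci. The cytokine genes Il4 and Il13 had 0 fragments in all 8 libraries, which allows up to 3 fragments a library, or 0.145 to 0.169 CPM in CF and 0.14 to 0.204 CPM in WT, for counting error only. The alarmin gene Il33 had 55.8 to 120 CPM in CF against 33.8 to 50.5 CPM in WT (log2 fold change 0.95, edgeR's adjusted p = 0.134). Alox15, a lipoxygenase gene induced by these cytokines in human cells, had 2.39 to 7.91 CPM in CF against 8.53 to 17.4 CPM in WT (log2 fold change -1.30, adjusted p = 0.154). The most abundant, Itln1, an intestinal lectin gene, and Il4r, the receptor subunit gene, had log2 fold changes of -0.60 (adjusted p = 0.347) and 0.55 (adjusted p = 0.183). Of 7 listed mucus processing enzymes 5 were tested, 4 with higher means in CF. edgeR, DESeq2 and limma-voom called 0, and 1 passed an unadjusted p under 0.05, Ctsz, where 15.1% of all loci passed. The meprin gene Mep1a had a log2 fold change of -0.59 (adjusted p = 0.564) and the cathepsin gene Ctsb one of 0.18 (adjusted p = 0.528).

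Markers of stratified epithelium, the usual site of Clca2, were uneven in level. Of 15 listed 4 had no locus of a single symbol and are not analysed here, 7 were below the filter and 4 were tested, 2 with higher and 2 with lower means in CF. Among those below the filter, the basal keratin gene Krt5 and the cornified envelope gene Ivl had 0 fragments in all 8 libraries. Summed over libraries, the keratin genes Krt13 and Krt4 had 1 and 1 fragments in CF, against 7 and 1 in WT, and Sprr1a had 1 in CF against 0 in WT. The desmosome genes Dsg3 and Dsc3 had 43 and 6 fragments in CF, against 10 and 29 in WT. Of the tested keratin genes, Krt14 was at 1.35 ± 0.521 CPM in CF against 1.25 ± 0.712 CPM in WT, and Krt15 was at 1.43 ± 0.347 CPM in CF against 1.87 ± 0.689 CPM in WT. The summed level of the tested markers was 52.3 to 123 CPM in CF against 43.4 to 107 CPM in WT. Sfn, which encodes an adaptor protein of the 14-3-3 family that simple epithelia also make, held most of it in CF at 74.1 ± 27.8 CPM, against 28.6 ± 5.87 CPM in WT (log2 fold change 1.37, edgeR's adjusted p = 0.0814). edgeR called 0 of the 4, with 1 higher and 1 lower at an unadjusted p under 0.05 (15.1% of all loci in either direction), and DESeq2 called 1 higher (2.16% of all loci). The hemidesmosome gene Col17a1, the other abundant member, was at 8.73 ± 5.16 CPM in CF against 36.9 ± 22.8 CPM in WT (log2 fold change -2.08, adjusted p = 0.224).

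Markers of other tissues in the preparation were read in the same libraries. The 6 tested smooth muscle markers summed to 4984 to 6607 CPM in CF against 3040 to 4529 CPM in WT. All 6 had higher means in CF, as did 49.2% of all loci. edgeR called 0 of the 6. At an unadjusted p under 0.05, 2 were higher, where 7.94% of all loci were, and DESeq2 called 2 higher, where it called 2.16% of all loci. The most abundant were the smooth muscle myosin gene Myh11 (log2 fold change 0.14, adjusted p = 0.777) and the desmin gene Des (0.97, adjusted p = 0.0689). The 8 leukocyte markers summed to 111 to 168 CPM in CF against 130 to 197 CPM in WT. 3 had higher and 5 lower means in CF, edgeR called 0, 1 passed an unadjusted p under 0.05 (15.1% of all loci) and DESeq2 called 1 lower (3.02% of all loci in either direction). The most abundant were Csf1r (log2 fold change -0.56, adjusted p = 0.133) and Ptprc (-0.07, adjusted p = 0.911). Of 8 listed exocrine pancreas markers 1 had no locus of a single symbol, 4 were below the filter and 3 were tested. Those below the filter each had 111 to 333 fragments over the CF libraries, against 10 to 206 over the WT libraries. They are not in the sums that follow. The 3 tested markers summed to 16.9 to 71.1 CPM in CF against 14.9 to 32.3 CPM in WT. edgeR and DESeq2 called 0 of the 3, with 0 at an unadjusted p under 0.05. The most abundant tested markers were Cela1 (log2 fold change 0.04, adjusted p = 0.915) and Ctrb1 (1.80, adjusted p = 0.725). The part of these cells in the Clca levels was not tested.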

How the data were processed

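Small intestine of CF and WT rats was sequenced as stranded mRNA, 4 libraries each. The submitters' processing notes name Cuffdiff, StringTie, STAR 2.3.1z, cutadapt and bcl2fastq with the build Rnor_6.0, without their order or settings. The estimated counts are raw fragments per locus and library, deposited by the authors before scaling, per the file headers; 5.99% were fractional and were rounded. FPKM values per library and per group, and interval bounds of the group values (here classed as other), were deposited by the authors after Cuffdiff's scaling, per the file headers. Of the columns with values per library, 2 were left unused. The table numbers libraries 0 to 3 and the titles 1 to 4, so only the group of each library is known.

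Loci were kept by edgeR's filterByExpr (minimum count 10, minimum total 15; 16941 of 52753), scaled by TMM and compared with edgeR (quasi-likelihood F-test, robust dispersions), calling Benjamini-Hochberg adjusted p under 0.05. Each standard error is the log2 fold change divided by the root of its F. Scores used log2 CPM with a prior count of 2, and the ratio a pseudocount of 0.5. The members, and the 9 lists with 129 entries (91 tested), were chosen with earlier results of these data known. Muc2 was matched by its RefSeq synonym. Named genes are the members, other Clca loci, Cftr, the 2 most abundant and all called members of each list, loci within 500 kb, and the 5 loci most correlated with Clca1 and Clca4; Lct, Slc15a1, Ano1, Ano7, Il33, Alox15, Il4, Il13, Ctsz, the untested stratified markers, Krt14 and Krt15 were chosen after their values were seen. Promoters and synonyms came from RefSeq (GRCr8). Alternatives were other scalings, no filter, DESeq2 1.42.0, limma 3.58.1, a replicate block and leaving out libraries. The other tools were Biopython 1.88, edgeR 4.0.16 under R 4.3.3, and matplotlib 3.10.9 with pandas 2.3.3 under Python 3.11.15.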

Additional observations from a re-analysis of the deposited data

Results flagged for a closer look

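Among 108 groups of 4 libraries, 9 held a library whose gap to its nearest neighbour, as a share of the group's range, was above Dixon's 95% critical value; chance gives about 1 in 20. For the log2 ratio of Clca4 to Clca1, CF library 2 stood apart at -0.07, and for Clca1 less the goblet cell score WT library 3 did so at 0.61. The smooth muscle score of CF library 3 was 0.48, and Myh11 in WT library 3 was at 1301 CPM. The pancreatic Ctrb1 was at 34.9 CPM in CF library 2 and at 9.23 CPM in WT library 1. Among genes beside the cluster, CF library 0 stood apart for Hs2st1 at 33.0 CPM and for Odf2l at 10.7 CPM, and WT library 3 for Sh3glb1 at 98.5 CPM.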

How the results depend on the processing

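Clca4 was higher in CF in all 17 alternatives, with log2 fold changes of 0.58 to 1.14. It was called only by DESeq2 (0.85, adjusted p = 0.0255); the adjusted p of the other 16 ran up to 0.452, and the cause was not tested. With 1 library left out the log2 fold change was 0.58 to 0.99 for Clca4, -0.18 to 0.14 for Clca1 and -0.30 to -0.10 for Clca2, and the number of loci called was 5 to 136. Clca1 changed sign without CF library 0 (0.14), without WT library 3 (0.11) and without libraries 0 of both groups (0.01), an alternative added after the data were seen; its adjusted p was 0.794 to 0.992 throughout. Clca2 stayed below 0 in all 17. The ratio of Clca4 to Clca1 kept its direction in its 12 alternatives, with exact p of 0.0571 to 0.1714, and differences of 0.72 to 1.16 with 1 library left out. The 28 loci called became 553 with no low-count filter, 563 with DESeq2, 17 with limma-voom and 86 without libraries 0 of both groups. Leaving out a CF library gave 136 (library 0) and 77 (library 2), and leaving out a WT library gave 5 (library 1), 5 (library 2) and 6 (library 3). A replicate block on the table's numbers 0 to 3 called 11 loci, with log2 fold changes of 0.79 for Clca4 (adjusted p = 0.332), -0.08 for Clca1 and -0.21 for Clca2 and a ratio difference of 0.88 (p = 0.125, exact sign-flip test, the smallest that 4 pairs allow). Equal numbers did not deviate together (correlations of 0.0651, -0.106, 0.163 and -0.00826), so they were not taken to pair the libraries. Clca5 and Clca4l were limited by depth.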
